A study of Mus musculus with 24 samples.

Results

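Crp, Ptx3 and Apcs encode pentraxins and were chosen from the results of these libraries as 3 of the 22282 genes that remained after the transcripts of each current mouse symbol were added up. Their FPKM (fragments per kilobase of transcript, scaled to the size of the library) was read library by library in 24 libraries, 3 from each of 8 groups of C57BL/6J mouse cells. MACs are cells grown from the amniotic fluid of mouse embryos taken between E11.5 and E13.5 (embryonic days), with both sexes mixed, and Akt-MACs and the 3 RACVEC groups descend from such cells. RACVECs are MACs that were transduced with lentiviruses for the ETS transcription factors Etv2, Erg and Fli1 and grown into endothelial cells in endothelial medium with an inhibitor of TGF-β signaling. Akt-MACs and Akt-RACVECs also carried a constitutively active, myristoylated Akt, and Sox17-RACVECs carried a Sox17 lentivirus and were selected with puromycin. Akt-LECs and Akt-liver ECs are lung and liver endothelial cells of mice that were isolated with beads for CD31, grown with the same Akt and sorted again for VEcad and CD31. The lung cells came from adults by the study's text, and the labels give no age for the lung and liver cells. LSECs are liver endothelial cells that were labeled in the living animal and sorted without culture, so a comparison with LSECs joins isolation, culture and Akt, which cannot be told apart. The methods describe biological replicates as independently isolated cultures, and the labels do not name the isolation of each library.

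Pentraxins are secreted proteins of innate immunity that assemble into rings and bind microbes, dying cells and matrix. The short pentraxins C-reactive protein (Crp) and serum amyloid P component (Apcs) are known as products of hepatocytes, released in the acute phase response under interleukin 6, whose signal passes through Stat3 and C/EBP factors. In mice, serum amyloid P component is the major acute phase pentraxin and C-reactive protein is a minor one. The long pentraxin Ptx3 is made locally by endothelial cells, fibroblasts and myeloid cells in response to Il1, Tnf and Toll-like receptor ligands, and it binds C1q, P-selectin and matrix proteins.

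Crp and Apcs lie 194 kb apart on chromosome 1 and Ptx3 on chromosome 3. In the GENCODE M1 annotation of mm9, the build of the files, Crp covers chr1:174628187-174630097 on the plus strand with 3 exons in its longest transcript. Apcs covers chr1:174824093-174825185 on the minus strand with 2 exons, and Ptx3 covers chr3:66023809-66029728 on the plus strand with 3 exons. The files hold 1 transcript for each of the 3 genes. The promoters are shown because RACVECs were made with ETS factors, which bind DNA at a GGAA core, and because Crp and Apcs are neighbors with different patterns. Each is the RefSeq sequence from 250 bases before to 50 bases after the start site on the strand of the gene, in build GRCm38.p6, at chr1:172697806-172698105 for Crp, chr3:66219637-66219936 for Ptx3 and chr1:172895005-172895304 for Apcs. Capitals mark GGAA on either strand, so that a match on the other strand reads TTCC.
Crp: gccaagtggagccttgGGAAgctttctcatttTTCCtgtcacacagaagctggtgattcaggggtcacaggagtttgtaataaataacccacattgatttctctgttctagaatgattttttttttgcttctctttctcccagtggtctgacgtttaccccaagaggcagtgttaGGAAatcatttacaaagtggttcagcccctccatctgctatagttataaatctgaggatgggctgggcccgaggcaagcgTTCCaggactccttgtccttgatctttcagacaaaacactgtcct
Ptx3: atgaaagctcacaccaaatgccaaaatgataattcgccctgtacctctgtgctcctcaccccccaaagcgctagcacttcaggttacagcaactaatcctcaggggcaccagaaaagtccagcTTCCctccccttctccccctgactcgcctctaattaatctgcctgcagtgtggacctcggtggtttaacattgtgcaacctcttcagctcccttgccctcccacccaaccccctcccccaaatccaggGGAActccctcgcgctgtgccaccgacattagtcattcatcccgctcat
Apcs: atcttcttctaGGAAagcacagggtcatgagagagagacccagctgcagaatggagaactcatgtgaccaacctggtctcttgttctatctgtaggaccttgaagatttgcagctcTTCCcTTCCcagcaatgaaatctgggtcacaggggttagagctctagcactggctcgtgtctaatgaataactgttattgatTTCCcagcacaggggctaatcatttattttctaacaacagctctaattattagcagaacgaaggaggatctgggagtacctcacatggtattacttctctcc
GGAA occurred 4 times in the Crp promoter, 4 times in that of Apcs and 2 times in that of Ptx3. Of 32851 promoters of the same length, 96.0% held it, with a median of 3 matches. The Sox motif AACAAT, found in 10.7% of promoters, and the CCAAT box, found in 37.4%, had no match in any of the 3. The C/EBP-like letters TTGCNNAA (10.8% of promoters) matched 1 time, in the Ptx3 promoter 57 bases before the start. The NF-kB consensus (8.46% of promoters) matched at 2 overlapping positions at the start site of Ptx3, where it also overlaps the second GGAA. The Stat letters TTCNNNGAA (8.3% of promoters) matched 1 time, 244 bases before the start of Apcs, and this match overlaps the first GGAA there. All motifs were searched on both strands. A match of such short letters describes the window, not a bound site.

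The summed FPKM of a library was between 1689486 and 2317294, and between 12356 and 14985 genes were above 0. No read numbers were used, the depth of each library is unknown, and an FPKM of 0 is given as a listed value that sets no limit of detection. No pair of libraries was identical (0 pairs). The labels were checked with marker genes of each cell type. The sum of 9 endothelial markers was between 2171 and 4479 FPKM in RACVECs, against 53.2 to 95.5 in MACs and 20085 to 22316 in LSECs. Each marker was above 0 in at least 1 library of RACVECs and also of MACs, and Cldn5, a protein of endothelial tight junctions, was at 23.90, 0 and 2.85 FPKM in RACVECs. LSECs also held all 12 hepatocyte markers, 8 of 8 macrophage markers in the files and red blood cell genes, the last with a sum of at least 35352 FPKM. Akt-MAC 2 and Akt-MAC 3 held macrophage marker sums of 13167 and 41206 FPKM and Akt-MAC 1 held 880, whereas the MACs held at most 14.7. The first replicates of Akt-LECs and of Akt-liver ECs stood apart from the other two of their groups, with macrophage sums of 1343 and 1026 FPKM. MAC 2 stood apart from the other MACs by genes of fat cells, with 1100 FPKM of Adipoq (adiponectin) and 2807.19 FPKM of Cfd (adipsin) against at most 26.66 and 55.45 FPKM.

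The transduced genes were read in every group as a check of the labels. Etv2 was 859.93, 301.31 and 659.05 FPKM in RACVECs and 127.38, 572.07 and 289.28 FPKM in Akt-RACVECs, and it was at 0 in the 5 groups without the ETS lentiviruses. In Sox17-RACVECs Etv2 was 458.43, 0 and 377.57 FPKM, so the library labelled Sox17-RACVEC 2 goes against its label for this gene. Erg was only 3.91, 13.83 and 0.90 FPKM in RACVECs and 4.49, 387.30 and 0 FPKM in Sox17-RACVECs, against 395.15, 1002.10 and 417.65 FPKM in Akt-RACVECs. Sox17 was at 0 in all 3 RACVECs and was 5.09, 40.14 and 200.06 FPKM in Sox17-RACVECs. It was also 12.01, 83.51 and 82.19 FPKM in Akt-RACVECs, which carried no Sox17 lentivirus, so these groups overlapped. Akt1 was higher in every Akt-MAC and Akt-RACVEC library than in any MAC or RACVEC library, but in Sox17-RACVECs it was 884.22, 1322.67 and 916.08 FPKM, which overlapped with Akt-RACVECs at 1280.50, 872.03 and 920.42 FPKM. In Akt-LECs Akt1 was 797.69, 1124.27 and 1266.17 FPKM. In Akt-liver ECs it was 892.09, 558.83 and 655.95 FPKM. Akt-liver EC 2 and Akt-liver EC 3 thus lay within the range of MACs and RACVECs, 551.19 to 693.96 FPKM, and Akt1 does not bear out their label. The FPKM do not tell a lentiviral copy from the cell's own gene. Values of Sox17-RACVECs are therefore given per library, and the counts of tested genes also without Sox17-RACVEC 2.

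Crp was listed at 0 in 16 of the 24 libraries, and its higher values lay in RACVECs and LSECs. In RACVECs it was 41.83, 34.76 and 12.66 FPKM (29.8 ± 15.2, SD, n = 3). In LSECs it was 20.25, 11.18 and 89.29 FPKM (40.2 ± 42.7, SD, n = 3). All 3 libraries of MACs, of Akt-MACs, of Akt-RACVECs and of Sox17-RACVECs were at 0, so leaving out Sox17-RACVEC 2 does not change its group. Of the cultured lung and liver endothelial cells, Akt-LEC 2 held 0.54 FPKM, Akt-liver EC 1 held 0.96 FPKM, and the other 4 libraries were at 0. The RACVEC and LSEC libraries thus overlapped with each other and with no other group, and the lowest RACVEC library was 13.2 times the highest of the other cultured libraries. RACVEC 3, the lowest of its group, is also the library whose file header names a day of culture, later than the conversion described in the methods, together with the words Flk1 and GFP+, whose meaning for this library is not stated. The mean of the other 2 RACVEC libraries was 38.3 FPKM. Within a RACVEC library, Crp was above 49.3%, 42.6% and 25.9% of the genes with an FPKM above 0, so it was a gene of middle to low level there. In LSECs these shares were 35.4%, 25.1% and 67.9%, and without LSEC 3 the mean of LSECs was 15.7 FPKM.

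**Figure D1:**
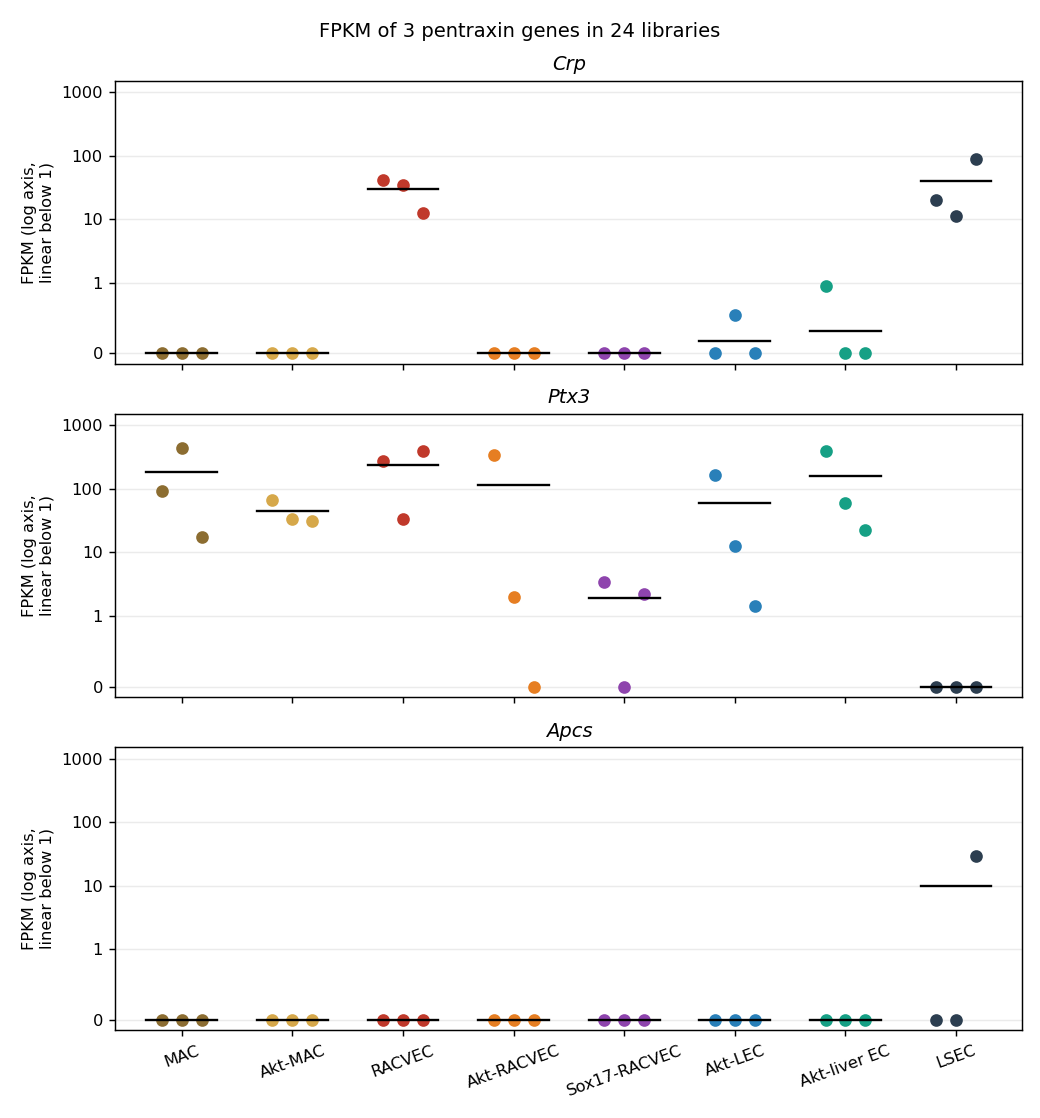
FPKM of Crp, Ptx3 and Apcs in each of the 24 libraries (points, 3 per group in the order of the replicate numbers) with the group mean (bars), on a log axis that is linear below 1. Crp lies between 12.66 and 41.83 in RACVECs and at 0 in RACVECs with Akt or Sox17, Ptx3 spans 0 to 448.14 with wide spread within groups, and Apcs is above 0 in 1 LSEC library.

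Because Crp was chosen for these values, the following counts are descriptions. Of the 14964 genes whose mean over the libraries reached 1 FPKM, 22 (0.147%) were higher in every RACVEC library than in all 18 other cultured libraries. With limits set after the Crp values were seen, at least 10 FPKM in every RACVEC library and below 1 in all other cultured libraries, 1 gene (0.00668%) remained, and it was Crp. For single comparisons the background was much wider. Every RACVEC library was above every MAC library for 11.4% of the genes, every Akt-RACVEC library was below every RACVEC library for 9.15%, and every Sox17-RACVEC library was below every RACVEC library for 6.55%. For Akt-liver ECs below LSECs and for Akt-LECs below LSECs, where Crp did not overlap either, the share was 24.9% each. The comparisons with Akt-RACVECs and with Sox17-RACVECs share the same 3 RACVEC libraries.

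The level of albumin (Alb), the major plasma protein of hepatocytes, was followed beside that of Crp. Albumin was above 0 in 5 libraries. In the LSECs it was 1950.52, 1211.05 and 7975.24 FPKM, and Crp amounted to 1.04%, 0.923% and 1.12% of it. LSEC 3 was the highest for both genes, with 5.68 times the mean of the other 2 LSEC libraries for Crp and 5.05 times for albumin. In RACVECs albumin was 0, 0 and 0.82 FPKM, and Apoa1, an apolipoprotein of hepatocytes, was at 0 in all 3. Of 12 hepatocyte markers, 3 were above 0 in any RACVEC library, namely Alb, Apob and Apoa2, and only Apoa2 reached a mean of at least 1 FPKM, with 16.85, 32 and 0 FPKM. The hepatocyte sum was 0.82 to 32 FPKM in RACVECs, 15 to 31.6 FPKM in Sox17-RACVECs, where Crp was at 0, and 3542 to 19398 FPKM in LSECs. RACVEC 3, with Apoa2 at 0, held 12.66 FPKM of Crp. In Akt-liver EC 1, albumin was 30.34 FPKM and Crp 3.16% of it. The part of hepatocyte RNA in the Crp values was not tested.

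**Figure D2:**
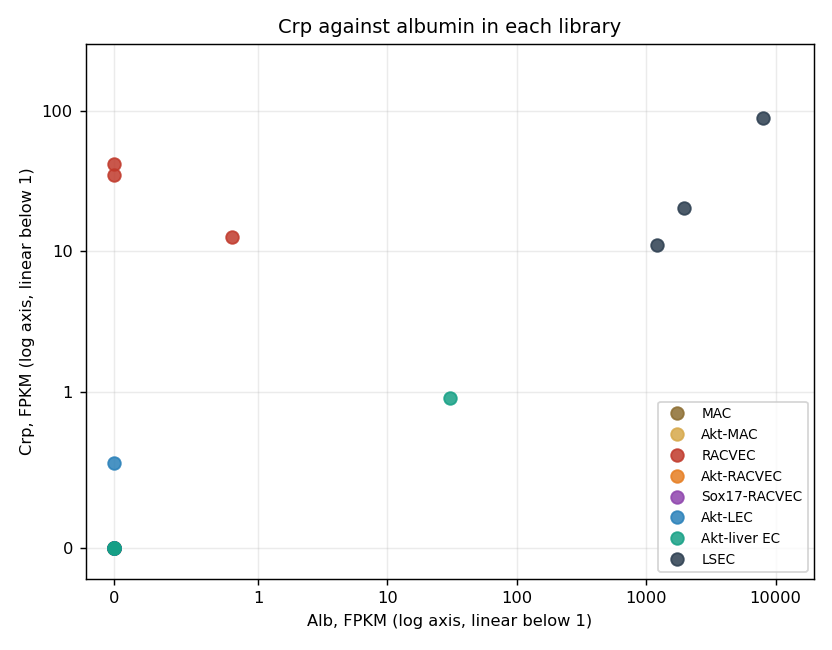
FPKM of Crp against FPKM of albumin in each library, both on log axes that are linear below 1. The 3 LSEC libraries lie at albumin above 1211 with Crp near 1% of it, whereas the 3 RACVEC libraries hold Crp of 12.66 to 41.83 at albumin of at most 0.82; points at 0 on both axes overlie each other.

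Some markers of other cell types differed between RACVECs and part of the groups without Crp. Krt19, a keratin, was 284.90, 128.90 and 1159.35 FPKM in RACVECs, at most 38.74 FPKM in Akt-RACVECs and at most 105.45 FPKM in Sox17-RACVECs. It made up nearly all of the sum of 7 epithelial markers in RACVECs (286, 131 and 1177 FPKM), and the defining markers Epcam and Cdh1 were at 0 there in all 3 libraries. RACVEC 3, with the highest Krt19, had the lowest Crp, and Akt-liver EC 1 held 276.03 FPKM of Krt19 with 0.96 FPKM of Crp. The sum of 9 mesenchymal markers (collagens, Pdgf receptors and smooth muscle genes among them) was 2988 to 6552 FPKM in RACVECs and 6.04 to 407 FPKM in Akt-RACVECs. In Sox17-RACVECs it was 1289, 11.8 and 2383 FPKM. It overlapped with RACVECs in MACs, at 3233 to 8852 FPKM, and in Akt-MACs, at 2382 to 10178 FPKM, where Crp was at 0. The part of these cells in the Crp values was not tested. In bulk RNA, fewer cells of a type and less RNA per cell cannot be told apart.

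The interleukin 6 pathway and the C/EBP and hepatic factors known to drive Crp in hepatocytes were read in the same libraries, and the 5 genes given here were picked from their lists after the values were seen. For Sox17-RACVECs against RACVECs, 9 of 14 tested Il6 and Stat3 genes had a negative log2 fold change and 4 a positive one. Of 8 tested C/EBP and hepatic factors, 4 were negative and 1 was positive. Il6ra was 12.89, 31.59 and 13.24 FPKM in RACVECs and 28.51, 37.21 and 18.46 FPKM in Sox17-RACVECs. Cebpg was 55.52, 88.09 and 98.49 FPKM in RACVECs and 73.44, 135.54 and 87.35 FPKM in Sox17-RACVECs. Stat3 was 331.23, 225.84 and 235.03 FPKM in RACVECs and 115.59, 556.04 and 98.68 FPKM in Sox17-RACVECs. Its near-equal means of 264 and 257 FPKM thus rest on Sox17-RACVEC 2, and the other Sox17-RACVEC libraries lay below all RACVECs. Hnf4a, a factor of the hepatocyte program, was at 0 in all RACVEC, Akt-RACVEC, Sox17-RACVEC and MAC libraries. In LSECs Hnf4a was 16.41, 16.35 and 41.98 FPKM. Il6 itself was 269.94, 34.74 and 168.84 FPKM in RACVECs, 70.26, 102.17 and 4.05 FPKM in Akt-RACVECs, and 0, 16.93 and 6.46 FPKM in Sox17-RACVECs. The Il6 libraries of RACVECs and Akt-RACVECs overlapped, those of RACVECs and Sox17-RACVECs did not, an arrangement that 6.55% of all genes share. Cebpd, a C/EBP factor induced in the acute phase, was 566.53, 375.54 and 494.35 FPKM in RACVECs, 400.09, 184.18 and 208.94 FPKM in Akt-RACVECs and 97.84, 181.25 and 44.16 FPKM in Sox17-RACVECs, which all lay below RACVECs as for the same 6.55% of genes. Cebpb was 359.22, 138.72 and 649.01 FPKM in RACVECs and 75.19, 181.57 and 40.16 FPKM in Sox17-RACVECs. Cebpa, which was 18.45, 382.63 and 109.47 FPKM in MACs, was 48.07, 1.98 and 15.41 FPKM in RACVECs and at most 1.48 FPKM in Sox17-RACVECs. The highest Cebpa was in MAC 2, the library with the fat cell genes, and their part in it was not tested. None of these differences between MACs, RACVECs, Akt-RACVECs and Sox17-RACVECs passed the adjusted test. For Sox17-RACVECs against RACVECs, the log2 fold change of Cebpd was -2.34 (SE 0.57) with a limma adjusted p of 0.3, and that of Il6 was -4.53 (SE 1.70) with an adjusted p of 0.613.

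**Figure D3:**
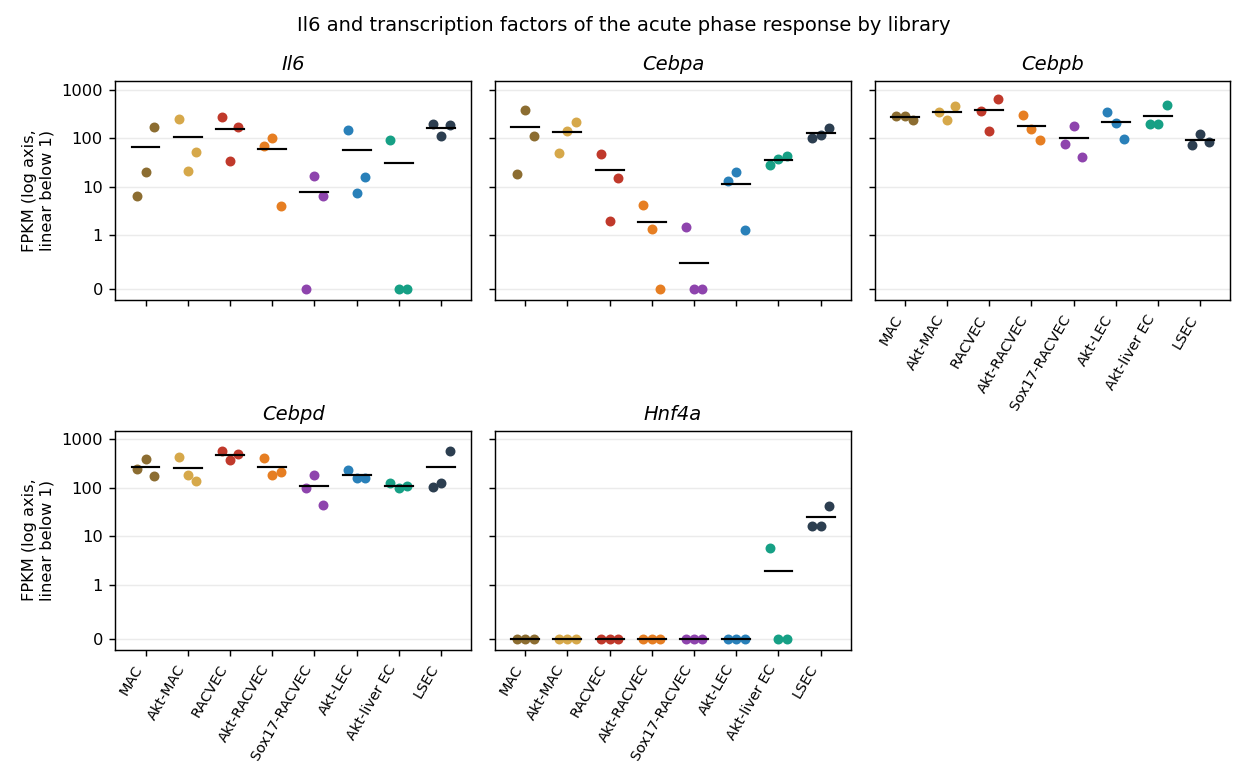
FPKM of Il6, of the C/EBP factors Cebpa, Cebpb and Cebpd and of the hepatic factor Hnf4a in each library (points) with group means (bars), on log axes that are linear below 1. Hnf4a is at 0 in all 3 RACVEC libraries, which hold Crp, and Cebpd in the 3 Sox17-RACVEC libraries lies at 44.16 to 181.25, below the 3 RACVEC libraries, as for 6.55% of all genes. The genes shown were picked from their lists after the values were seen, and some other genes of the lists, such as Il6ra and Cebpg, are not lower in the mean of Sox17-RACVECs.

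The genes with the pattern most like that of Crp over the 24 libraries, by Pearson's r of log2(FPKM + 1), were the sulfotransferase Sult1b1 (r = 0.905), Pnp2 (0.856), the purine nucleoside phosphorylase Pnp (0.831), Rnase10 (0.82) and Haao (0.802), an enzyme of tryptophan breakdown. These libraries come from 8 groups and share cells and culture, so the values describe likeness only. Sult1b1 averaged 2.09 FPKM in RACVECs and 7.11 FPKM in LSECs, with at most 0.31 FPKM in any other group mean. Haao averaged 3.3 FPKM in RACVECs and 147 FPKM in LSECs and was at 0 in the other 6 groups. Pnp and Pnp2 are near-identical copies whose reads can be split between them, and they averaged 530 and 284 FPKM in RACVECs, the highest of the cultured groups. Of the other protein-coding genes within 250 kb of Crp, Dusp23, a phosphatase, averaged 43.0 FPKM in RACVECs, 43.3 FPKM in Akt-RACVECs and 23.5 FPKM in MACs. Tagln2, an actin-binding protein, was above 0 in all 24 libraries, with 2086 FPKM in RACVECs and 1383 FPKM in Akt-RACVECs. Fcrl6, like Apcs in cultured cells, was at 0 in all libraries, and Slamf9, Slamf8, Igsf9, Vsig8 and Cfap45 were at most 2.58 FPKM in the mean of RACVECs. Slamf9 averaged 120 FPKM in Akt-MACs, which held the macrophage markers.

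Ptx3 was above 0 in 19 of the 24 libraries and spread widely within groups. In MACs it was 93.19, 448.14 and 17.32 FPKM (186 ± 230, SD, n = 3), and in Akt-MACs 68.15, 34.19 and 31.42 FPKM (44.6 ± 20.5). In RACVECs it was 277.87, 33.10 and 391.20 FPKM (234 ± 183). These 3 groups overlapped, and the highest library was 25.9 times the lowest among MACs and 11.8 times among RACVECs. The highest MAC library was MAC 2, which also held the fat cell genes, and their part in its Ptx3 was not tested. In Akt-RACVECs Ptx3 was 346.07 FPKM in 1 library, 1.98 in another and 0 in the last (116 ± 199). In Sox17-RACVECs it was 3.47, 0 and 2.19 FPKM (1.89 ± 1.75), so that all 3 lay below every MAC, Akt-MAC, RACVEC and Akt-liver EC library, also without Sox17-RACVEC 2, the library at 0. The mean of RACVECs was 124 times that of Sox17-RACVECs, and the lowest RACVEC library was 9.54 times the highest Sox17-RACVEC library. The background for this arrangement is the same 6.55% of genes, and for Sox17-RACVECs below MACs, Akt-MACs and Akt-liver ECs it is 15.3%, 22.7% and 10.3%. Akt-LECs held 167.84, 12.73 and 1.45 FPKM (60.7 ± 93.0) and Akt-liver ECs 394.14, 61.08 and 22.71 FPKM (159 ± 204). All 3 LSEC libraries were at 0, below every Akt-LEC and every Akt-liver EC library, where 25.3% and 27.7% of all genes had the cultured group higher without overlap.

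In the order of the group means, from RACVECs through MACs, Akt-liver ECs, Akt-RACVECs, Akt-LECs and Akt-MACs to Sox17-RACVECs and LSECs, neighboring groups overlapped except Akt-MACs and Sox17-RACVECs. Over the 24 libraries, which share groups and cultures, the Pearson's r of log2(FPKM + 1) between Crp and Ptx3 was -0.11. RACVECs were the only group in which all 3 libraries held both genes, and LSECs held Crp in all 3 libraries with Ptx3 at 0.

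Ptx3 was set beside the mesenchymal markers because fibroblasts are known to make it. In Akt-LECs the library with 167.84 FPKM of Ptx3 had a mesenchymal sum of 4170 FPKM, and the other two had 37.4 and 117 FPKM. In Akt-liver ECs the library with 394.14 FPKM of Ptx3 had a mesenchymal sum of 2636 FPKM, against 177 and 439 FPKM. In Akt-RACVECs the sums were 407, 41.7 and 6.04 FPKM, in the same order as Ptx3. The library with the highest Ptx3 was also the one with the highest mesenchymal sum in 4 of the 7 groups with Ptx3 above 0. The same count was 4 of 7 for the macrophage sum, 4 of 7 for the epithelial sum and 0 of 7 for the endothelial sum. Levels did not follow the sum in other cases. Sox17-RACVEC 3 held 2383 FPKM of mesenchymal markers with 2.19 FPKM of Ptx3, Akt-MAC 3 held 10178 FPKM with 31.42 FPKM, and LSEC 3 held 1018 FPKM with Ptx3 at 0. The part of mesenchymal, macrophage and epithelial cells in the Ptx3 values was not tested. Without the first replicates, Akt-LECs and Akt-liver ECs still held Ptx3 in all of their remaining libraries, at 1.45 to 61.08 FPKM.

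**Figure D4:**
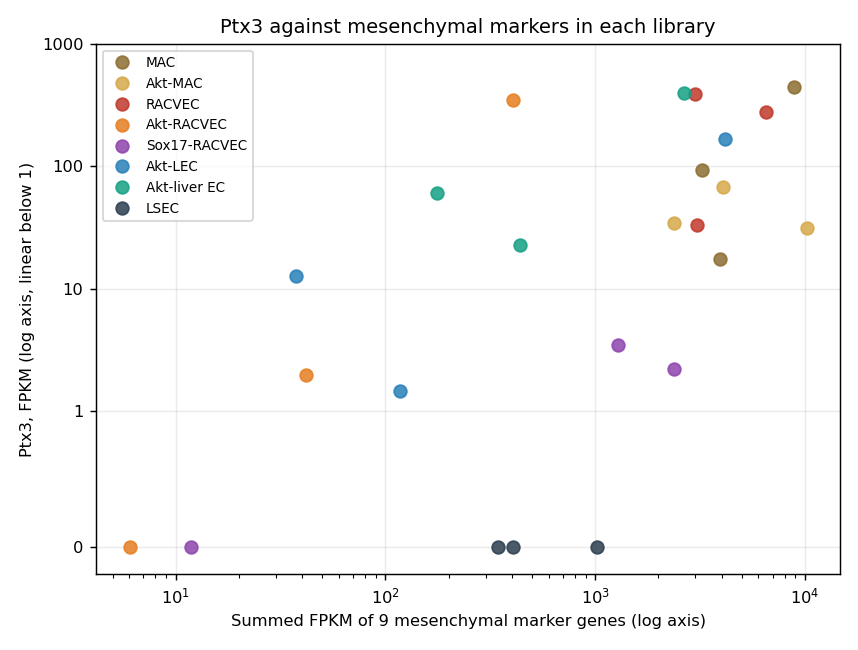
FPKM of Ptx3 (log axis, linear below 1) against the summed FPKM of 9 mesenchymal marker genes (log axis) in each library. Akt-LEC, Akt-liver EC and Akt-RACVEC libraries with the highest Ptx3 also have the highest sum of their group, whereas 2 Sox17-RACVEC libraries with sums of 1289 and 2383 have Ptx3 of 3.47 and 2.19.

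The genes most like Ptx3 were the transcript NR_001592 (r = 0.852), for which no symbol was found, Il1rl1 (0.839), the receptor of interleukin 33, Wasf1 (0.838), a regulator of actin, the adhesion protein Clmp (0.832) and the proliferin Prl2c2 (0.827). Prl2c2 belongs to a family of near-identical copies and its level is uncertain. Il1rl1 was 391.27, 109.77 and 43.06 FPKM in RACVECs, 35.59, 2.03 and 0 FPKM in Akt-RACVECs, and at most 0.8 FPKM in Sox17-RACVECs. It was at 0 in LSECs, as Ptx3 was. Veph1, the other protein-coding gene in the files within 250 kb of Ptx3, did not exceed 0.453 FPKM in any group mean.

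Apcs was at 29.54 FPKM in LSEC 3 and at 0 in the other 23 libraries, including LSEC 1 and LSEC 2 (9.85 ± 17.1, SD, n = 3). LSEC 3 was also the library with the highest hepatocyte sum, 19398 FPKM against 3542 and 5188 FPKM, the highest albumin and the highest Crp. Apcs amounted to 0.37% of the albumin and 33.1% of the Crp in LSEC 3, and the same share of albumin would give 7.22 FPKM in LSEC 1 and 4.49 FPKM in LSEC 2. The part of hepatocyte RNA in the Apcs values was not tested. The 5 genes with the pattern most like it, Sult3a1, Sult2a2, Cyp2b9, A1bg and Mup2, all had an r of 1.0, which rests on LSEC 3, the only library with Apcs. For Mup2 the rank correlation (Spearman's rho) was 0.603, against 1.0 for the others, so its values outside LSEC 3 were not all at 0. The 5 are genes of liver metabolism, plasma proteins and the major urinary protein family, whose copies share reads. The olfactory receptor genes Olfr16 and Olfr1408 within 250 kb of Apcs were at 0 in all libraries. In RACVECs, which held Crp, Apcs was at 0 in all 3 libraries.

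The 6 other pentraxin genes were read in the same way. Ptx4, Mptx1 and Mptx2 were at 0 in all 24 libraries. Nptx1, a neuronal pentraxin of synapses, was 765.24, 425.54 and 5.43 FPKM in Akt-RACVECs and 403.99, 721.93 and 73.21 FPKM in Sox17-RACVECs. It was 6.44, 23.77 and 60.34 FPKM in RACVECs, 60.87, 7.72 and 143.24 FPKM in MACs, and at 0 in LSECs. Its Sox17-RACVEC libraries lay above all RACVEC libraries, as 4.05% of all genes did, while its Akt-RACVEC libraries overlapped with them. Between Sox17-RACVECs and RACVECs, Nptx1 thus went in the direction opposite to that of Crp. Its log2 fold change of 3.64 (SE 1.62) for Sox17-RACVECs against RACVECs had a limma adjusted p of 0.711. Nptx2 was at 0 in RACVECs, Akt-RACVECs, Sox17-RACVECs and LSECs and was 5.23, 1.12 and 6.76 FPKM in MACs. Nptxr, the membrane-bound neuronal pentraxin receptor, ranged from a mean of 0.55 FPKM in LSECs to 34.3 ± 26.7 FPKM (SD, n = 3) in Akt-RACVECs.

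The partners of the pentraxins were compared between groups with lists of 118 genes, of which 117 are in the files and 107 reached a mean of 1 FPKM and were tested. Calls required a limma adjusted p below 0.05, with adjustment over all 14964 genes, and a log2 fold change past 1 or -1. In RACVECs against MACs, 2 of the 107 genes (1.87%) were called, both higher, against 2.71% of all genes (1.36% higher and 1.35% lower). Selp, the P-selectin to which Ptx3 binds, was 77.82, 1467.26 and 175.44 FPKM in RACVECs and at most 8.53 FPKM in MACs, with a log2 fold change of 6.70 (SE 1.03, limma adjusted p = 0.00113). Cd14, the coreceptor of Toll-like receptor 4, was 154.78, 317.12 and 723.69 FPKM in RACVECs and 20.31, 6.83 and 7.09 FPKM in MACs (log2 fold change 4.90, SE 1.19, limma adjusted p = 0.0299). Selp was still called with any 1 of the 6 libraries left out, but both calls were lost in a fit of only the groups compared and by the criterion of the study's methods. Cd14 lost its call without MAC 2, MAC 3, RACVEC 2 or RACVEC 3, with adjusted p of up to 0.132. Lists of complement, acute phase, Il6 and C/EBP genes held 0 called genes, and 8 of the 107 genes (7.48%) were past the fold and the 0.05 limit before adjustment, 4 in each direction, against 12.6% of all genes. Without MAC 2 there were 9 (8.41%) against 14.8%.

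In Akt-RACVECs against RACVECs, 0 of the 107 genes were called by limma, against 0.261% of all genes (0.221% higher and 0.0401% lower). With the p left unadjusted, 13 passed 0.05 and the fold limit, all 13 (12.1%) lower in Akt-RACVECs, against 5.24% of all genes lower and 4.79% higher at that threshold. Among them was the C1 inhibitor Serping1 (log2 fold change -5.14, SE 1.45, limma adjusted p = 0.0999). In Sox17-RACVECs against RACVECs, 0 of the 107 genes were called, against 0.00668% of all genes, which is 1 gene. At the unadjusted threshold there were 21, of which 20 (18.7%) were lower and 1, Nptx1, was higher, against 3.38% of all genes lower and 1.32% higher. Without Sox17-RACVEC 2 there were 16 lower (15%) and 1 higher, against 2.48% and 1.26% of all genes, and limma called 9 genes and 0 of the 107. The median log2 fold change of the 107 genes was -0.30, against -0.02 over all genes. Among the 20 were the acute phase genes Hp (haptoglobin, log2 fold change -4.55, limma adjusted p = 0.579) and Cp (ceruloplasmin, -3.79, adjusted p = 0.262), named after their values were seen. Both comparisons use the same RACVEC libraries, so their shared direction is not independent, and the fits with 1 library left out called at most 1 of the 107 genes for Akt-RACVECs. The lists were chosen with earlier results of these data known, so list shares in this and the other comparisons are descriptions.

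In Akt-MACs against MACs, 8 of the 107 genes (7.48%) were called, all higher, against 2.81% of all genes (2.59% higher and 0.214% lower). They were C1qa, C1qb and C1qc, the chains of the complement protein C1q that pentraxins bind, the Fc receptors Fcgr1, Fcgr3 and Fcgr4 with their common chain Fcer1g, through which pentraxins act on phagocytes, and Tnf. C1qa was 31.04, 465.09 and 1164.82 FPKM in Akt-MACs and at 0 in all 3 MACs (limma adjusted p = 0.0124, and between 0.00163 and 0.0762 with 1 library left out). Fcer1g was 67.77, 1539.71 and 3589.1 FPKM in Akt-MACs and at 0 in MACs. Both genes had their order of libraries in common with the macrophage markers, whose sum was 880, 13167 and 41206 FPKM in Akt-MACs, and the part of these cells was not tested. None of the 8 calls held in every fit with 1 library left out. All 8 were also lost in a fit of only the groups compared and by the criterion of the study's methods. Without Akt-MAC 2 all 8 were lost, without Akt-MAC 3 there were 7 lost, and without Akt-MAC 1 there were 16 calls. Crp stayed at 0 and Ptx3 at 31.42 to 68.15 FPKM in these libraries. The effect of Akt in RACVECs was compared with that in MACs by an interaction term, which called 15 of 14964 genes at an adjusted p below 0.05 and 0 of the 107. At an unadjusted p below 0.05 there were 21 of the 107 (19.6%) and 12.1% of all genes. Except for Nptx1, the term of these genes was negative, so their change with Akt was lower in RACVECs than in MACs. They included the 8 genes called in Akt-MACs against MACs, and the part of macrophages in this count was not tested.

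In Akt-liver ECs against LSECs, 61 of the 107 genes (57.0%) were called, 12 higher and 49 lower, against 27.0% of all genes (14.1% higher and 12.9% lower). The median log2 fold change of the list was -1.74, against 0.08 over all genes. LSECs held the hepatocyte, macrophage and red blood cell markers given above, whereas the hepatocyte sum in Akt-liver ECs was 32.1 to 74.2 FPKM, and the part of these cells in the counts was not tested. Of the 61 calls, 47 held in each of the 6 fits with 1 library left out. Among the genes named below, Fcer1g, Il33, Nptx1 and Tnfaip6 held in 5 of the 6 fits. Il6, Nptx2 and Tlr2 held in only 2 and Tnfaip3 in only 1.

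The recognition proteins and receptors of the pentraxins were mostly lower in Akt-liver ECs. For each list from here on, the share called over all genes was 12.9% lower and 14.1% higher. Of 20 complement and soluble partners, 15 fell and 1 rose. Fcna, a ficolin, was 2385.26, 2328.63 and 1206.47 FPKM in LSECs and 16.20, 0 and 0 FPKM in Akt-liver ECs (log2 fold change -9.51, SE 1.16, limma adjusted p = 4.96e-06). C1qa, C1qb and C1qc also fell, with log2 fold changes of -9.16, -9.39 and -8.91, as did C4b (-6.02). Of 7 receptors, 5 fell and 1 rose. Fcgr2b, a scavenging Fc receptor that marks liver sinusoidal endothelium, was 13704.01, 10831.74 and 12077.07 FPKM in LSECs and 417.92, 0 and 0 FPKM in Akt-liver ECs (log2 fold change -10.67, SE 1.69, limma adjusted p = 9.48e-05). Fcgr1, Fcgr3, Fcgr4 and Fcer1g fell as well, with log2 fold changes of -6.06, -7.81, -7.28 and -5.79. Selp rose by 5.60 (SE 1.03, limma adjusted p = 0.000411), from at most 18.09 FPKM in LSECs to at least 533.84 FPKM in Akt-liver ECs.

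The ligands and matrix partners of Ptx3 went in both directions, with 3 of 11 higher and 2 lower, against 14.1% and 12.9% of all genes. Itih5 and Itih1 belong to a family of heavy chains, some of which crosslink hyaluronan with Ptx3 and Tnfaip6. Itih5 and Itih1 changed by 5.88 (SE 1.44) and -3.58 (SE 0.41) on the log2 scale, and Itih3 fell by 2.40. Outside LSECs, Itih1 was above 0 only in Akt-liver EC 3, at 0.54 FPKM. The fit pools the variance over all groups, so the SE of Itih1 does not measure its spread among LSECs. Thbs1, thrombospondin, rose by 6.87 (SE 1.81, limma adjusted p = 0.0067), and Tnfaip6 was at 0 in LSECs and 16.86, 2.54 and 5.09 FPKM in Akt-liver ECs (limma adjusted p = 0.00885). These stand beside Ptx3 itself, which was at 0 in LSECs. All 3 tested neuronal pentraxin genes were called higher, Nptxr by 4.02 (SE 0.87, limma adjusted p = 0.00157), and Nptx1 and Nptx2 from 0 in every LSEC library.

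Acute phase proteins split between 9 that fell and 3 that rose of 20 tested. The fibrinogen chain Fgg was 121.26, 80.16 and 465.6 FPKM in LSECs and at 0 in all Akt-liver ECs (limma adjusted p = 1.22e-10), with its highest value in LSEC 3, as for Crp. Fgg was at 0 in every library outside LSECs, and the fit pools the variance over all groups. Its p therefore does not measure the spread among LSECs. Fgb (log2 fold change -6.09) and Orm1, an orosomucoid (-5.84), fell, and both were also highest in LSEC 3. Lcn2 (lipocalin 2) and Fn1 (fibronectin) rose by 9.07 and 7.85 on the log2 scale. Of 14 genes of Il6 and Stat3 signaling, 7 fell and 1, Lif, rose by 5.07. Il6 was 194.39, 112.73 and 184.62 FPKM in LSECs and 93.41, 0 and 0 FPKM in Akt-liver ECs (log2 fold change -5.14, SE 1.70, limma adjusted p = 0.0256, and up to 0.119 with 1 library left out). Il6st, the signaling chain of its receptor, Lifr, Osmr and Jak1 fell, with log2 fold changes of -3.31, -6.98, -4.06 and -1.79. Of 24 genes of Il1, Tnf and Toll-like receptor signaling, 9 fell and 0 rose, led by Il1b, which was 1007.6, 893.76 and 1024.14 FPKM in LSECs and at most 1.46 FPKM in Akt-liver ECs (log2 fold change -9.50, SE 0.68, limma adjusted p = 3.21e-09). Il1a, Tnf, Il33, Tlr2 and Tnfaip3 fell, with log2 fold changes of -8.43, -5.08, -4.17, -2.46 and -1.90. Ptx3, which these ligands are known to induce, was at 0 in all 3 LSEC libraries. Of 8 C/EBP and hepatic factors, Hnf4a (log2 fold change -3.64) and Cebpg (-1.63) fell.

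**Figure D5:**
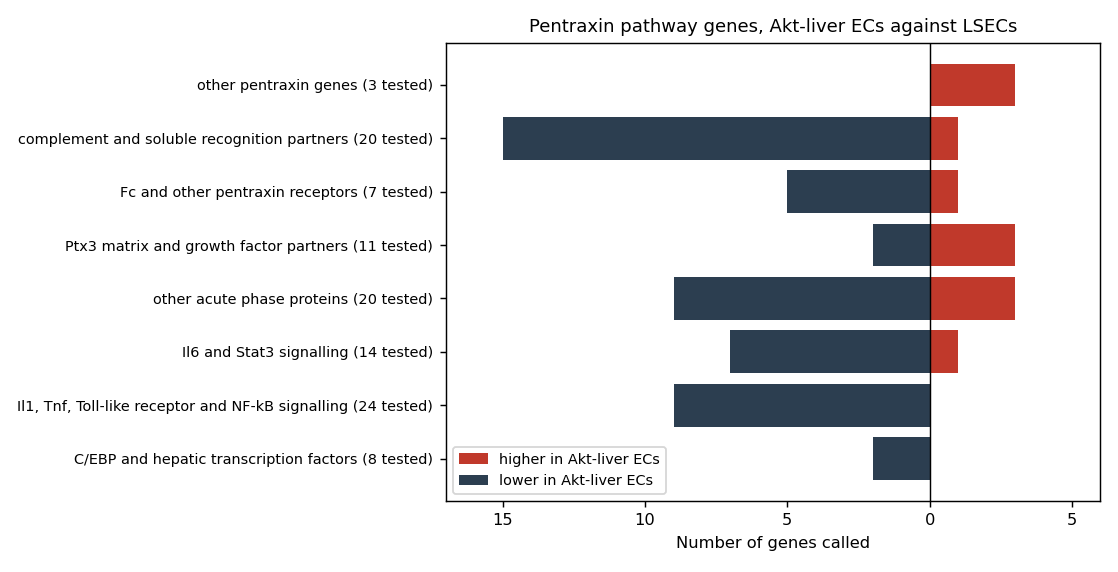
Number of pentraxin partner and pathway genes called in Akt-liver ECs against LSECs by list, with genes higher in Akt-liver ECs to the right of 0 and lower to the left. Of 107 tested genes 49 are called lower and 12 higher (57.0% called, against 27.0% of all genes), and the complement list holds 15 of the lower ones.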

How the data were processed

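The 24 libraries were paired 51 bp TruSeq libraries. The authors aligned them to mm9 by TopHat and deposited Cufflinks FPKM per RefSeq transcript, upper-quartile normalized and bias corrected. Versions are not given in the sources used here. Of 27583 transcripts per library, 26934 were joined to a current symbol and summed, which gave 22282 genes. Groups follow the labels. The test was limma 3.58.1 (R 4.3.3), run on log2(FPKM + 1) in 1 fit over 8 groups (16 residual degrees of freedom), two-sided, with Benjamini-Hochberg adjustment over the 14964 genes that reached a mean of 1 FPKM. Fold changes on this scale understate those of low genes. The script was tested on simulated data. The 3 members and all lists were chosen with earlier results of these data known, so members have no test. Named were called list genes, at most 6 per list by size, the 5 genes most like each member, other pentraxins, genes within 250 kb and markers, except some list genes that are counted but not reported here by name. Neighbors, promoters and symbols come from RefSeq tables of GRCm38.p6, positions from GENCODE M1. Alternatives were other pseudocounts, filters, scalings and fits, the criterion of the methods and leaving out libraries. Python 3.11.15 with pandas 2.3.3 was used for summaries.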

Additional observations from a re-analysis of the deposited data

How the results depend on the processing

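Scaled to a fixed sum below the deposited sums, which by construction lowers all genes, the mean of Crp moved from 29.8 to 16 FPKM in RACVECs and from 40.2 to 17.6 in LSECs, that of Ptx3 from 234 to 119 in RACVECs and from 44.6 to 22.6 in Akt-MACs, and that of Apcs in LSECs from 9.85 to 4.25. Of these, Ptx3 in Akt-MACs moved by more than the spread between replicates. With 1 library left out, the mean of Crp was 23.7 to 38.3 in RACVECs and 15.7 to 54.8 in LSECs, that of Ptx3 in RACVECs 155 to 335, and that of Apcs in LSECs 0 to 14.8. The number of genes called depended on the fit. For RACVECs against MACs, 405 genes were called, 41 in a fit of only the groups compared, and 178 (without RACVEC 2) to 747 (without MAC 2) with 1 library left out. Of the pathway genes, 2 were called, 4 at a pseudocount of 0.1, 0 in the fit of only the groups compared, 0 by the criterion of the study's methods, and 2 to 3 with 1 library left out. For Akt-RACVECs against RACVECs, 39 genes were called, 92 at a pseudocount of 10, 82 at a mean FPKM of at least 10, 9 in the fit of only the groups compared, 518 by the criterion, and 5 (without RACVEC 1 or Akt-RACVEC 2) to 93 (without RACVEC 2) with 1 library left out, and the pathway count of 0 became 2 by the criterion and 0 to 1 with 1 library left out. For Sox17-RACVECs against RACVECs, 1 gene was called, 2 at a pseudocount of 0.1, 0 at a mean FPKM of at least 10, 8 in the fit of only the groups compared, 151 by the criterion, and 1 to 53 (without RACVEC 2) with 1 library left out, and the pathway count of 0 became 1 by the criterion. For Akt-MACs against MACs, 420 genes were called, 241 at a mean FPKM of at least 10, 3 in the fit of only the groups compared, 170 by the criterion, and 72 (without Akt-MAC 2) to 772 (without Akt-MAC 1) with 1 library left out, and the pathway count of 8 became 0 in the fit of only the groups compared, 3 by the criterion and 0 to 16 with 1 library left out. The 3 pathway genes called by the criterion were not among the 8. For Akt-liver ECs against LSECs the pathway count of 61 became 33 by the criterion and 51 to 64 with 1 library left out, and its other alternatives stayed within 1.5 times. The cause of these changes was not tested. The median of all genes was shifted by 0.121 (log2) in Akt-MACs against MACs and by 0.11 in Akt-liver ECs against LSECs, and scaling by this shift left 8 and 61 pathway genes called. With the replicate number as a block, the counts of called genes were 0 for RACVECs against MACs, Akt-RACVECs against RACVECs, Sox17-RACVECs against RACVECs and Akt-MACs against MACs (0 pathway genes each), and 3230 with 43 pathway genes for Akt-liver ECs against LSECs. Whether the numbers pair the libraries cannot be decided here. In no comparison did every same-numbered pair have a correlation above 0.1 (range -0.2 to 0.206). Pairs with different numbers were not compared, and the file headers number some libraries otherwise. Of 1102 values of named genes under other settings, 936 kept direction and call, 165 lost the call, 1 moved and 0 reversed.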
